A study of Homo sapiens with 6 samples.

Results

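The genes described here are 10 regulators of the balance between epithelial and mesenchymal states, chosen by name from the 14959 genes of the deposited table. 5 are inducers of epithelial-mesenchymal transition (EMT), namely SNAI1, SNAI2, TWIST1, ZEB1 and ZEB2. The other 5 maintain epithelial identity, namely TP63, GRHL2, OVOL1, ESRP1 and ESRP2. All 10 had a row in the table, and none was removed by a filter on low values.

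The cells were UM-SCC1, an established line of head and neck squamous cell carcinoma (HNSCC), and their RNA was sequenced. Cells had been transfected with synthetic mimics of the microRNA miR-204-5p in 3 independent experiments, or with control mimics in 3 independent experiments, and were collected after 48 h. Both groups are thus the same transfected line, and they differ in the mimic. The values are FPKM (fragments per kilobase of transcript, scaled to the mapped fragments of a library), which are levels per length, and the depth inferred from the smallest FPKM steps was about 13100000 to 16400000 fragments per library. The data come from 1 cell line and from bulk RNA, so fewer cells expressing a gene and less RNA per cell cannot be told apart.

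EMT inducers are DNA-binding repressors and activators that switch off junction genes such as CDH1 and favour motility. In squamous epithelium they are opposed by p63, grainyhead-like and OVO-like transcription factors, which maintain the epithelial programme, and by the ESRP proteins, which direct epithelial patterns of splicing. A microRNA lowers its target mRNAs by pairing its seed, the bases near its 5′ end, with matching sites, mostly in 3′ untranslated regions (3′ UTRs).

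The mature miR-204-5p is shown first because its seed defines the sites that were searched in the members' 3′ UTRs. It is encoded on the minus strand of chr9:70810031-70810052 (RefSeq, GRCh38.p14), and capitals mark its seed, bases 2 to 8.
miR-204-5p: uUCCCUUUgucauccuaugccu

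The strongest seed match is the 8-base AAAGGGAA, followed by the 7-base AAAGGGA and AAGGGAA, which both lie within it, and by the 6-base AAGGGA, which lies within all of them. Each gene was searched in its longest 3′ UTR on the transcribed strand (GENCODE 29, GRCh38). A match of 7 or more bases was found in 6 of the 10 members, 3 in each class, against 27.1% of the 14664 genes of the table that have an annotated 3′ UTR. ZEB1 and OVOL1 held the 8-base match, which was present in 8.60% of those genes. SNAI1, SNAI2, TP63 and ESRP1 held a match of 7 bases. GRHL2 and ZEB2 had 6-base matches alone in the longest 3′ UTR, and TWIST1 and ESRP2 had none. With all annotated 3′ UTRs of a gene joined, ZEB2 also held an 8-base match, which made 7 members, against 29.2% of genes.

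The sites of 7 or 8 bases in SNAI1, ZEB1, TP63 and OVOL1 are given on the transcribed strand, with the match in capitals and 10 bases on either side. The SNAI1 site is in exon 3 at chr20:49988645-49988651, plus strand. The ZEB1 site is in exon 9 at chr10:31528365-31528372, plus strand. The TP63 sites are both in exon 14, at chr3:189896432-189896438 and chr3:189897031-189897037, plus strand. The OVOL1 site is in exon 4 at chr11:65796756-65796763, plus strand.
SNAI1: caatgtctgaAAAGGGActgtgagtaa
ZEB1: tacagaaacgAAAGGGAAattttctaat
TP63 (first site): gaggggagggAAGGGAAagtttttttt
TP63 (further site): attgaatgttAAAGGGAtatttttttc
OVOL1: cttgtgggccAAAGGGAAaaacaggcag

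A match is a run of letters, and its binding was not tested here. For SNAI2 the authors reported that a luciferase reporter carrying its 3′ UTR lost activity with the mimics. The loss was not seen when the site was mutated. They also reported SNAI2 mRNA enriched with AGO2, of the silencing complex, and lower SNAI2 protein in cells given the mimics. Reporter results of the same kind were given for HDAC1 and SUZ12, described below. In the longest 3′ UTRs the sites lay at base 589 of 830 in SNAI1, 550 of 1203 in SNAI2, 1101 of 2549 in ZEB1, 1415 of 1878 in OVOL1 and 1311 of 1577 in ESRP1. The TP63 sites lay at bases 1930 and 2529 of 2777. The map of seed matches shows that the members' 3′ UTRs ranged from 706 bases in TWIST1 to 5370 bases in ZEB2, and that length and number of matches both differ among them.

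**Figure D1:**
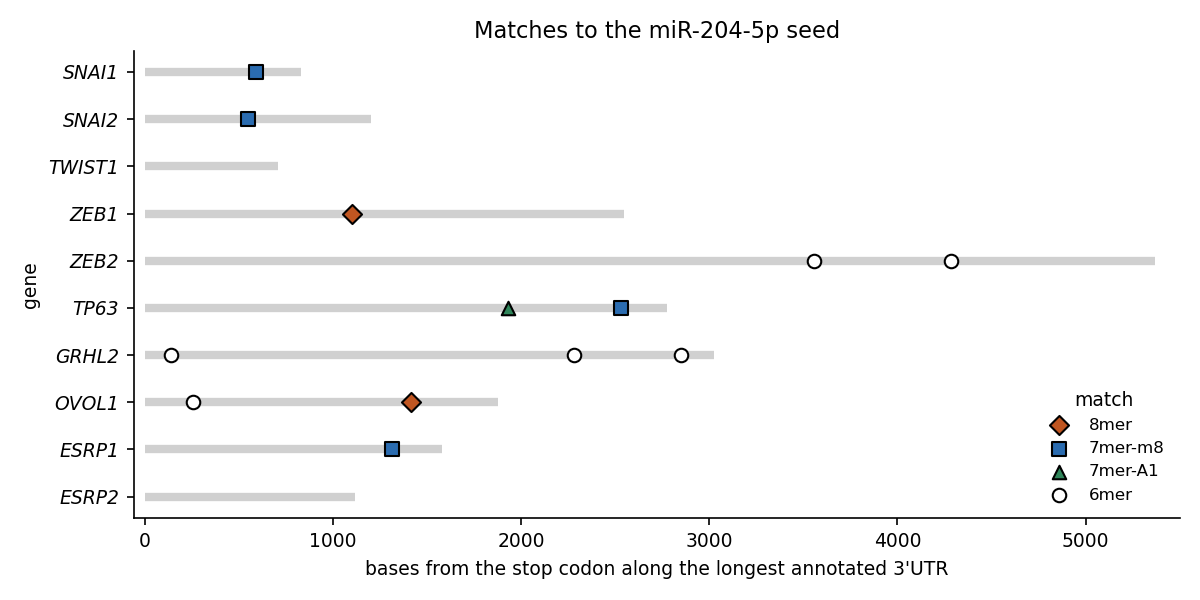
Positions of miR-204-5p seed matches along the longest 3′ UTR annotated for the 10 genes, in bases from its start, with the kind of match marked. 6 genes carry a match of 7 or more bases, GRHL2 and ZEB2 carry 6-base matches, and TWIST1 and ESRP2 carry none.

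Across the 10 genes, 6 passed the limma test at an adjusted p under 0.05, of which 5 fell and 1 rose in cells given miR-204-5p. Of all genes tested, 40.8% passed, 16.8% lower and 23.9% higher, so a call by itself did not set a gene apart here. The excess of higher calls over all genes depended on scaling, with 2520 lower and 3578 higher as deposited, 2948 and 3106 with equal medians, and 3026 and 3043 with quantile normalization. The members' split of 5 lower and 1 higher was the same under these scalings. The classes differed in what they held. Of the epithelial regulators, TP63, GRHL2, OVOL1 and ESRP1 fell and none was called higher, whereas among the EMT inducers SNAI2 fell and TWIST1 rose. ESRP2 had a higher mean with miR-204-5p but did not pass. A mean of at least 1 FPKM was reached by 2 of the 5 EMT inducers and by all 5 epithelial regulators. The median log2 difference was −0.42 over the 5 epithelial regulators and −0.01 over the 5 EMT inducers, beside 0.03 over all genes. The inducer median is the value of ZEB2, and ZEB1 and ZEB2 are both so low that the added 1 FPKM holds their differences near 0. These medians describe small lists and were not tested against each other. All log2 differences are on the log2(FPKM + 1) scale and are given as mimics minus control.

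SNAI2 (ENSG00000019549, chr8:48917604-48921683, minus strand) encodes Slug, a zinc-finger repressor of CDH1 and other E-box genes that is also present in basal squamous cells. It was at 7.20, 6.51 and 6.68 FPKM in the 3 miR-204-5p libraries and at 10.1, 9.20 and 10.7 FPKM in the 3 control libraries. Every miR-204-5p library was below every control library. The mean fell from 9.99 ± 0.742 to 6.80 ± 0.359 FPKM (SD, n = 3 each), 68.1% of control, with a log2 difference of −0.49 (SE 0.0688, limma adjusted p = 0.00199).

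SNAI1 (ENSG00000124216, chr20:49982999-49988886, plus strand) encodes Snail, the close relative of Slug. Its levels were 0.671, 0.630 and 1.01 FPKM with miR-204-5p and 0.630, 0.436 and 0.523 FPKM with control mimics. These values come from an estimated 10 to 27 fragments per library. The lowest miR-204-5p library and the highest control library were equal to the digits given. The means were 0.770 ± 0.207 and 0.530 ± 0.0973 FPKM (SD, n = 3 each), and the log2 difference of 0.21 (SE 0.0940) did not pass the limma test (adjusted p = 0.128). It was 0.45 with a pseudocount of 0.1 (adjusted p = 0.133), and 0.11 without miR-204-5p replicate 3.

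TWIST1 (ENSG00000122691, chr7:19020991-19116924, minus strand) encodes a basic helix-loop-helix factor of mesoderm and neural crest. It was at 12.6, 13.8 and 15.8 FPKM with miR-204-5p and at 11.2, 8.34 and 10.7 FPKM with control mimics. The groups did not overlap, and the mean rose from 10.1 ± 1.53 to 14.0 ± 1.58 FPKM (SD, n = 3 each), a ratio of 1.39. The log2 difference was 0.44 (SE 0.122, limma adjusted p = 0.0272). This call was lost without miR-204-5p replicate 2 (adjusted p = 0.0698) or replicate 3 (adjusted p = 0.0786). The transcript listed for TWIST1 in the table is one annotated as a target of nonsense-mediated decay, 527 bases long, whereas the gene's coding transcript has 1666 bases, so its FPKM level is not comparable with that of the other members.

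ZEB1 (ENSG00000148516, chr10:31319125-31529202, plus strand) and ZEB2 (ENSG00000169554, chr2:144364364-144396562, minus strand) encode zinc-finger homeobox repressors that are mutual antagonists of the miR-200 family and of GRHL2. ZEB1 was listed at 0, 0 and 0.00937 FPKM with miR-204-5p and at 0.0104, 0.0369 and 0.0269 FPKM with control mimics, an estimated 0 to 2.8 fragments per library. ZEB2 was at 0.0138, 0.0630 and 0.0306 FPKM with miR-204-5p and at 0.0298, 0.0748 and 0.0201 FPKM with control mimics, an estimated 0.25 to 1.5 fragments. By these estimates neither gene was far from the level of a single fragment, and a difference between the groups was not detectable for either. The limma adjusted p was 0.480 for ZEB1 and 0.893 for ZEB2. The transcript listed for ZEB2 has 1414 bases, against 9583 in its longest coding transcript. Its fragments were estimated from the listed length and would be more numerous if its FPKM rests on longer transcripts.

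**Figure D2:**
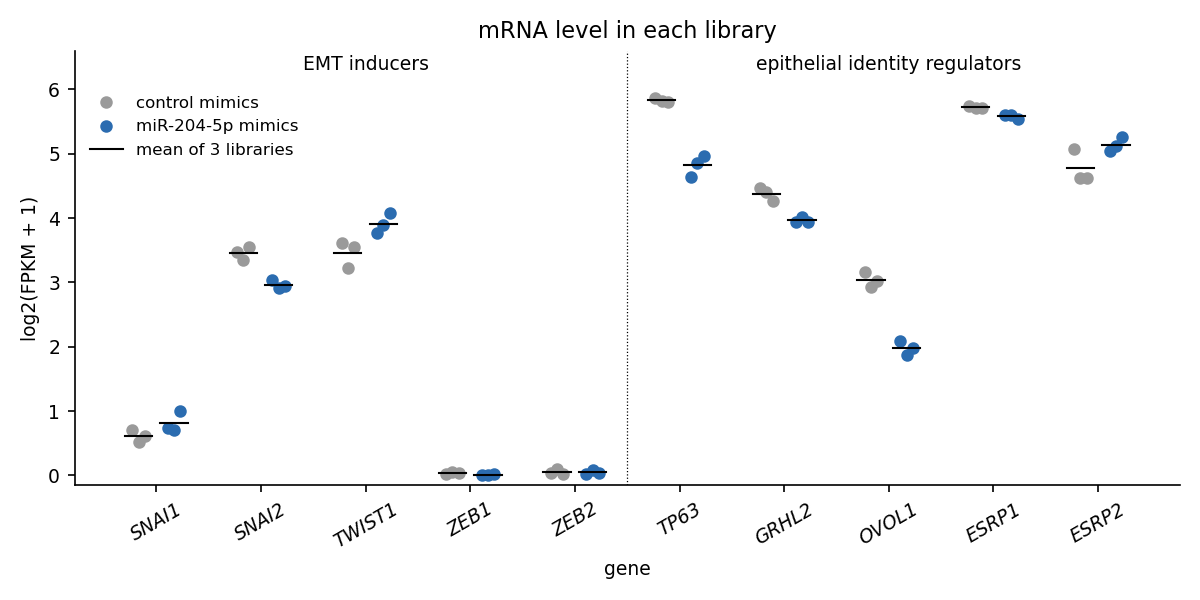
FPKM of the 10 genes in each of the 6 libraries, with group means marked. TP63, OVOL1, GRHL2, SNAI2 and ESRP1 are lower in all miR-204-5p libraries, TWIST1 is higher in all of them, and ZEB1 and ZEB2 stay below 0.1 FPKM in every library.

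TP63 and OVOL1 had the largest falls of the 10 genes. TP63 (ENSG00000073282, chr3:189631427-189897279, plus strand) encodes p63, the p53-family factor required for stratified epithelium. Its levels were 23.9, 28.1 and 30.1 FPKM with miR-204-5p and 57.6, 55.4 and 54.7 FPKM with control mimics. The highest miR-204-5p library was thus far below the lowest control library. The mean fell from 55.9 ± 1.48 to 27.4 ± 3.19 FPKM (SD, n = 3 each), 48.9% of control, and the log2 difference was −1.01 (SE 0.0826, limma adjusted p = 0.000276). Only 0.715% of all genes had a lower log2 difference.

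The p63 gene makes TA proteins from an upstream start and ΔN proteins from a downstream start, and ΔN is the form known from basal squamous cells. In GENCODE 29, 5 of its 12 coding transcripts start between 189631427 and 189631516 on chromosome 3, and 7 start between 189789660 and 189789801. The transcript listed in the table starts upstream, and the table gives 1 value for the gene, so the fall could not be assigned to either form.

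OVOL1 (ENSG00000172818, chr11:65787022-65797219, plus strand) encodes a zinc-finger repressor that acts in epidermal differentiation. It was at 3.25, 2.66 and 2.93 FPKM with miR-204-5p and at 7.90, 6.61 and 7.12 FPKM with control mimics, with no overlap. The mean fell from 7.21 ± 0.654 to 2.95 ± 0.295 FPKM (SD, n = 3 each), 40.9% of control. The log2 difference was −1.06 (SE 0.0870, limma adjusted p = 0.000282), and 0.595% of all genes had a lower one.

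GRHL2 (ENSG00000083307, chr8:101492432-101669726, plus strand) encodes a grainyhead-like activator of junction genes. It was at 14.4, 15.1 and 14.4 FPKM with miR-204-5p and at 21.1, 20.2 and 18.3 FPKM with control mimics. All miR-204-5p libraries were lower, and the mean fell from 19.9 ± 1.45 to 14.6 ± 0.389 FPKM (SD, n = 3 each). That is 73.4% of control, with a log2 difference of −0.42 (SE 0.0599, limma adjusted p = 0.00221). Its longest 3′ UTR held matches of 6 bases alone.

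Of the splicing factors, ESRP1 passed the test and ESRP2 did not. ESRP1 (ENSG00000104413, chr8:94641074-94707466, plus strand) was at 47.4, 47.7 and 45.6 FPKM with miR-204-5p and at 52.5, 51.3 and 51.6 FPKM with control mimics. The groups did not overlap, but the fall was small, from 51.8 ± 0.605 to 46.9 ± 1.11 FPKM (SD, n = 3 each), 90.5% of control. Its log2 difference of −0.14 (SE 0.0340, limma adjusted p = 0.0169) did not pass without control replicate 1 (adjusted p = 0.0570).

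ESRP2 (ENSG00000103067, chr16:68229111-68236132, minus strand) was at 31.8, 33.8 and 37.1 FPKM with miR-204-5p and at 32.7, 23.7 and 23.5 FPKM with control mimics. Control replicate 1 lay within the range of the miR-204-5p libraries, and the other control libraries lay below it. The means were 34.3 ± 2.69 and 26.6 ± 5.23 FPKM (SD, n = 3 each), and the log2 difference of 0.37 (SE 0.132) did not pass the limma test (adjusted p = 0.0665). Without control replicate 1 it was 0.52 and passed (adjusted p = 0.00512).

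**Figure D3:**
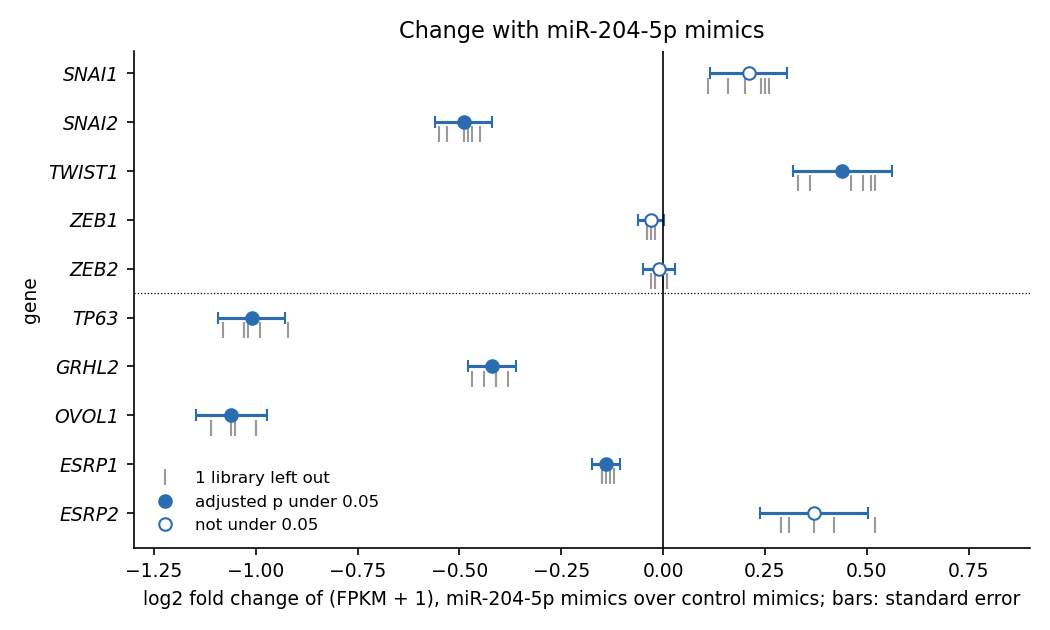
Log2 difference in log2(FPKM + 1), mimics minus control, with its SE for each of the 10 genes. The vertical line is at 0, and grey marks give the fits with 1 library left out. TP63 and OVOL1 lie near −1, SNAI2 and GRHL2 between −0.5 and −0.4, ESRP1 near −0.1, and TWIST1 is the gene above 0 that passed the test.

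For 8 of the 10 genes the libraries of both groups had separate ranges, 6 lower and 2 higher with miR-204-5p, where 53.6% of all genes had separate ranges, 22.7% lower and 30.9% higher. Among the 2 higher genes, SNAI1 was separated from its control by less than the digits given, and among the 6 lower genes ZEB1 was separated by 0.00937 against 0.0104 FPKM, an estimated 0.79 against 0.8 fragments. Of the 6 genes with a seed match of 7 or more bases, SNAI2, TP63, OVOL1 and ESRP1 fell, SNAI1 did not pass the test and ZEB1 was near 0. Of the other 4 genes, GRHL2 fell, TWIST1 rose, and ESRP2 and ZEB2 did not pass.

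In control cells TP63 was the most abundant of the 10 genes by FPKM, followed by ESRP1, ESRP2, GRHL2, TWIST1, SNAI2, OVOL1, SNAI1, ZEB2 and ZEB1. The ranges of TWIST1 and SNAI2 overlapped, as did those of ZEB2 and ZEB1, and all other neighbours in this order had separate ranges. TP63 and ESRP1 were above 94.3% and 93.7% of all genes in control cells, and SNAI1 was above 18.5%. With miR-204-5p the order was ESRP1, ESRP2, TP63, GRHL2, TWIST1, SNAI2, OVOL1, SNAI1, ZEB2 and ZEB1, with an overlap between GRHL2 and TWIST1 only. TP63 thus stood first with control mimics and behind both ESRP genes with miR-204-5p. Levels of TWIST1 and ZEB2 in these orders rest on the listed transcripts described above.

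Related genes were also compared within each library. The plain FPKM ratio of SNAI2 to SNAI1, in which a factor common to a library cancels, was 10.7, 10.3 and 6.63 with miR-204-5p and 16.0, 21.1 and 20.4 with control mimics, and that of ESRP1 to ESRP2 was 1.49, 1.41 and 1.23 against 1.61, 2.17 and 2.19. The tests were made on FPKM + 1, where such a factor does not cancel fully for a low gene such as SNAI1. The log2 ratio of SNAI2 to SNAI1, each as FPKM + 1, was 2.29, 2.20 and 1.94 with miR-204-5p and 2.76, 2.83 and 2.94 with control mimics. The ratio was lower in every miR-204-5p library, with a difference of −0.70 between the means of 2.15 ± 0.187 and 2.84 ± 0.0880 (SD, n = 3 each). The log2 ratio of ESRP1 to ESRP2 was 0.56, 0.48 and 0.29 with miR-204-5p and 0.67, 1.09 and 1.10 with control mimics. It too was lower in every miR-204-5p library, by a difference of −0.51. For both ratios the two-sided exact permutation p was 0.1, the smallest that 3 against 3 libraries allow, and 0.15 when adjusted over the 3 ratios tested. The remaining ratio, ZEB1 to ZEB2, counts in this adjustment but shows nothing, since with both genes under 0.1 FPKM it lies near 0 on this scale whatever their levels.

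Genes around these regulators were described through 10 further lists, whose counts are to be read against the 40.8% of all genes that passed. Most genes of each list reached a mean of 1 FPKM. With the fit limited to genes at that level, 5761 of 11504 passed, a larger share, so list counts above 40.8% need not be raised. Among related EMT transcription factors, 12 of 16 were in the table, of which 4 fell and 2 rose (median log2 difference −0.06). TCF12, an E protein that pairs with TWIST1, fell from 6.94 ± 0.126 to 3.24 ± 0.282 FPKM (log2 difference −0.91, limma adjusted p = 0.000192). ID3, an inhibitor of E proteins, fell from 58.2 ± 3.73 to 43.8 ± 4.02 FPKM (−0.40, adjusted p = 0.00692). SOX9 rose from 0.850 ± 0.0522 to 1.47 ± 0.0643 FPKM (0.42, adjusted p = 0.00132), and FOXC1 rose from 1.09 ± 0.0345 to 1.58 ± 0.113 FPKM (0.30, adjusted p = 0.00655). With a pseudocount of 0.1 these log2 differences were 0.73 and 0.49.

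Among related epithelial transcription factors, 14 of 17 were in the table, of which 7 fell and 1 rose (median −0.25). GRHL1, the relative of GRHL2, fell from 27.5 ± 0.701 to 13.0 ± 0.220 FPKM (log2 difference −1.03, limma adjusted p = 3.13e-05). TP73, of the p53 family like TP63, fell from 4.0 ± 0.910 to 1.76 ± 0.441 FPKM (−0.85, adjusted p = 0.00793). EHF, an ETS factor of epithelia, was the gene that rose, from 20.5 ± 1.39 to 28.1 ± 1.39 FPKM (0.43, adjusted p = 0.00224). Named after its values were seen, the OVOL1 relative OVOL2 was at 10.2 ± 1.03 against 8.12 ± 1.00 FPKM and did not pass (adjusted p = 0.0593).

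All 21 corepressors through which SNAI and ZEB proteins act were in the table, and 8 fell and 4 rose (median −0.04). With FPKM scaled to equal sums 8 were lower and 2 higher, and with equal medians 8 were lower and 1 higher. The deacetylase HDAC1 fell from 126 ± 2.49 to 62.5 ± 2.89 FPKM (log2 difference −1.0, limma adjusted p = 4.7e-05). SUZ12, a subunit of the Polycomb complex that methylates histone H3, fell from 28.4 ± 0.548 to 19.2 ± 0.320 FPKM (−0.54, adjusted p = 0.000149). HDAC2 rose from 7.95 ± 0.158 to 9.73 ± 0.657 FPKM (0.26, adjusted p = 0.0135). AJUBA, a LIM protein that binds SNAI proteins, rose from 25.6 ± 4.52 to 37.5 ± 6.87 FPKM (0.53, adjusted p = 0.0392), a call held in 7 of 13 alternative fits. It was lost without replicate 1 or 2 of either group, where the log2 difference was between 0.39 and 0.57, and with equal medians (0.49, adjusted p = 0.0537) or the replicate block (0.53, adjusted p = 0.0957).

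Of the 19 genes for turnover of SNAI and p63 proteins, 3 fell and 7 rose (median −0.02). With FPKM scaled to equal sums or to equal medians the split was 5 lower and 5 higher. The ubiquitin ligase component FBXL5 rose from 8.49 ± 0.213 to 12.4 ± 0.650 FPKM (log2 difference 0.49, limma adjusted p = 0.000731), and the kinase CSNK1E rose from 18.3 ± 1.40 to 25.7 ± 0.964 FPKM (0.47, adjusted p = 0.00166). The ubiquitin ligase MDM2 fell from 5.97 ± 0.471 to 4.29 ± 0.190 FPKM (−0.40, adjusted p = 0.00514), and the phosphatase scaffold PPP2R1A fell from 50.2 ± 2.10 to 40.0 ± 0.872 FPKM (−0.32, adjusted p = 0.00166). CSNK1E overlaps TPTEP2-CSNK1E and MDM2 overlaps CPM, so some of their reads may be shared.

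Genes that SNAI and ZEB proteins repress, mostly for junctions and polarity, moved both ways, with 7 of 25 lower and 7 higher (median −0.03). The desmosomal plakophilin PKP2 rose from 5.66 ± 0.667 to 13.3 ± 1.18 FPKM (log2 difference 1.10, limma adjusted p = 0.000344), and MAL2, a protein of apical transport, rose from 56.9 ± 1.72 to 86.8 ± 2.43 FPKM (0.60, adjusted p = 0.000133). The membrane protease ST14 fell from 81.9 ± 1.36 to 53.5 ± 1.60 FPKM (−0.61, adjusted p = 0.000102), and the tight-junction gene CLDN1 fell from 183 ± 2.07 to 133 ± 5.55 FPKM (−0.46, adjusted p = 0.000343). The E-cadherin gene CDH1 rose from 28.2 ± 0.727 to 37.2 ± 1.07 FPKM (0.39, adjusted p = 0.000618).

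Of the mesenchymal genes, 17 of 22 were in the table, and 3 fell and 5 rose (median 0.08). ACTA2, smooth muscle actin, rose from 10.8 ± 0.875 to 15.9 ± 0.984 FPKM (log2 difference 0.52, limma adjusted p = 0.00196), and the receptor kinase AXL rose from 22.7 ± 1.53 to 30.2 ± 0.907 FPKM (0.40, adjusted p = 0.00214). The collagen crosslinker LOX fell from 7.83 ± 1.68 to 4.78 ± 1.03 FPKM (−0.61, adjusted p = 0.030), and the calcium-binding protein S100A4 fell from 7.21 ± 0.384 to 5.64 ± 0.679 FPKM (−0.31, adjusted p = 0.0286). Each of these falls passed in 9 of 13 alternative fits. The call of LOX was lost without miR-204-5p replicate 2 or 3 or control replicate 1 or 2 (log2 difference −0.64 to −0.46), and that of S100A4 without miR-204-5p replicate 1 or 3 or control replicate 1 or 2 (−0.30 to −0.25). The number of mesenchymal genes called, 8 in all, was 5 without miR-204-5p replicate 3, control replicate 1 or control replicate 2, and 5 with the genes under a mean of 1 FPKM left out.

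All 16 genes spliced by ESRP proteins were in the table, and 5 fell and 2 rose (median −0.16). ENAH, an actin regulator, fell from 6.42 ± 0.227 to 3.11 ± 0.108 FPKM (log2 difference −0.85, limma adjusted p = 0.000144), and GRHL1, above, is also on this list. FGFR2 rose from 3.04 ± 0.442 to 4.47 ± 0.378 FPKM (0.44, adjusted p = 0.0136), and EXOC1, of the exocyst, rose from 15.9 ± 0.485 to 18.9 ± 0.573 FPKM (0.24, adjusted p = 0.00602). These are totals per gene and say nothing of their isoforms.

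Of the 25 genes in the table that were listed as induced by p63, 11 fell and 8 rose (median −0.15). That is 76.0% in either direction, beside 40.8% of all genes, and was not tested as a set. With the filter at a mean of 1 FPKM, 18 of 24 passed, beside 5761 of 11504 genes. The hemidesmosomal collagen COL17A1 fell from 83.0 ± 5.59 to 33.8 ± 2.61 FPKM (log2 difference −1.27, limma adjusted p = 8.86e-05), and the desmosomal cadherin DSG3 fell from 9.05 ± 0.272 to 3.99 ± 0.210 FPKM (−1.01, adjusted p = 9e-05). The laminin chain LAMB3 rose from 38.9 ± 1.79 to 63.5 ± 1.97 FPKM (0.70, adjusted p = 0.000138), and the integrin chain ITGA6 rose from 47.6 ± 0.975 to 63.7 ± 3.43 FPKM (0.41, adjusted p = 0.000934). The list thus moved in both directions while TP63 itself fell.

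Of 15 genes induced by GRHL2, ESRP1 among them, 4 fell and 4 rose (median 0.00 when rounded). ERBB3, a receptor of the EGFR family, fell from 27.2 ± 1.80 to 7.11 ± 0.673 FPKM (log2 difference −1.80, limma adjusted p = 4.47e-05). The tight-junction gene CLDN7 rose from 81.0 ± 6.86 to 115 ± 3.44 FPKM (0.50, adjusted p = 0.00152). CDH1 and ST14, named above, are also on this list, the first among its genes that rose and the other among those that fell.

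Of 17 genes of TGF-β and BMP signalling upstream of the EMT inducers, 4 fell and 4 rose (median −0.08). The ligand TGFB2 was at 4.47, 4.40 and 4.26 FPKM with miR-204-5p and at 0.669, 0.516 and 0.640 FPKM with control mimics, and its log2 difference was 1.74 (limma adjusted p = 2.95e-05), or 2.67 with a pseudocount of 0.1. The receptor TGFBR2 fell from 23.2 ± 0.679 to 8.11 ± 0.630 FPKM (−1.41, adjusted p = 4.7e-05), and SKI, a repressor of SMAD activity, fell from 11.2 ± 0.0561 to 4.32 ± 0.477 FPKM (−1.20, adjusted p = 0.000115). The ubiquitin ligase SMURF2 rose from 10.5 ± 0.263 to 12.6 ± 0.437 FPKM (0.24, adjusted p = 0.00753).

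**Figure D4:**
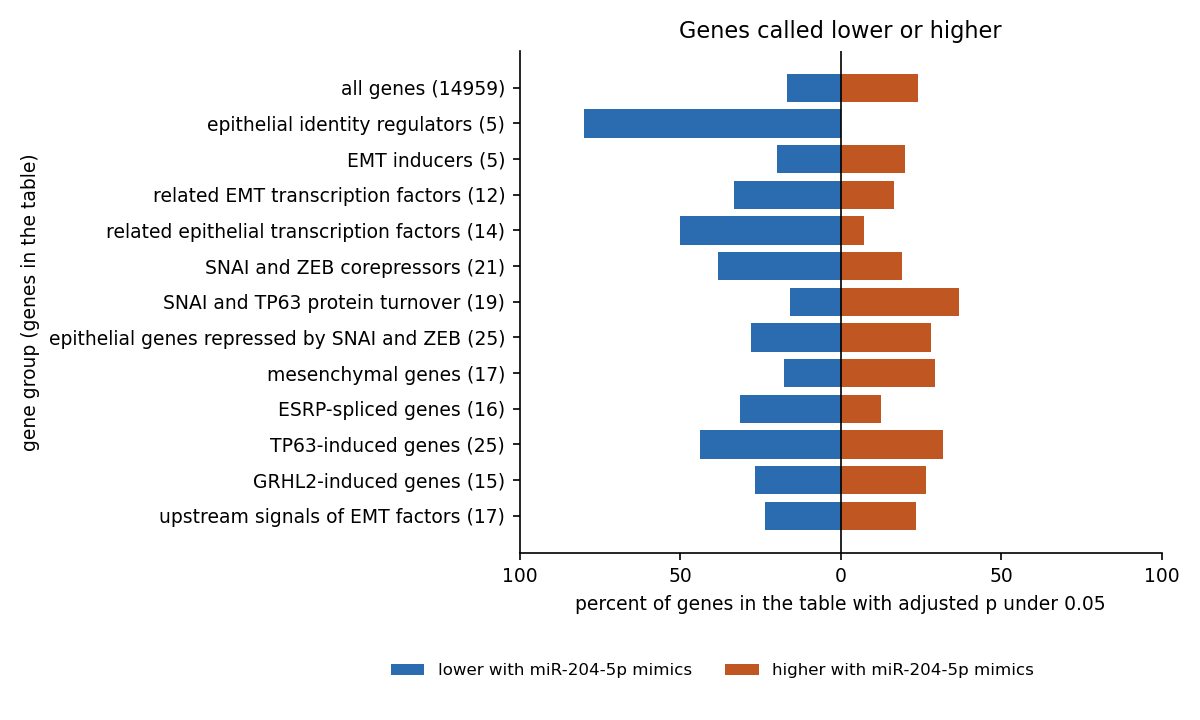
Percent of the genes of each group that were called lower or higher (limma adjusted p under 0.05) with miR-204-5p. The groups are all genes, the epithelial identity regulators, the EMT inducers and the 10 further lists. The related epithelial transcription factors hold 7 lower and 1 higher gene, and the TP63-induced genes hold 11 lower and 8 higher genes.

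The labelled cell type was checked against markers. All 14 squamous epithelium markers were above a mean of 1 FPKM, and their summed level was 1148 to 1249 FPKM with miR-204-5p and 1342 to 1363 FPKM with control mimics. Of these markers 9 were called lower and 4 higher. Of the 9 fibroblast markers 5 were in the table, with sums of 9.89 to 11.7 and 8.58 to 9.41 FPKM, nearly all from COL1A1. The 8 leukocyte markers summed to 27.0 to 30.5 and 32.3 to 33.8 FPKM, mostly from CD14, CD68 and LYZ. CD14 fell from 16.3 ± 0.423 to 12.4 ± 0.965 FPKM (limma adjusted p = 0.00407), CD68 was at 9.60 ± 0.917 against 10.8 ± 0.777 FPKM and LYZ at 4.14 ± 0.365 against 4.13 ± 0.510 FPKM, while the pan-leukocyte gene PTPRC was at a mean of 0.215 FPKM over all libraries. Of the 6 endothelial markers 4 were in the table, and none of the 4 reached a mean of 1 FPKM. The sums of each of these marker lists had separate ranges in the groups, as did 53.6% of all genes and most, but not all, members. Their part in the members' values was not tested.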

How the data were processed

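RNA from 6 cultures of UM-SCC1 cells was sequenced, 3 per group. The authors deposited FPKM per gene with a listed transcript, its coordinates, length and exon number (other values). The submitters' processing notes name HISAT2, StringTie and hg38, with roles and versions not given in the sources used here. Columns of the authors' own comparison, which their methods credit to edgeR, were not used. Of the listed transcripts, 14946 of 14959 were found in GENCODE 29.

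The table held no counts. Values were taken as log2(FPKM + 1) without a filter and compared with limma 3.58.1 (R 4.3.3, empirical Bayes with trend, Benjamini-Hochberg adjustment over 14959 genes), and a gene was called at an adjusted p under 0.05. Ratios within libraries were compared by an exact permutation test with scipy 1.17.1. On simulated data for this comparison with 14959 genes, 53 of 100 genes changed by 0.5 on the log2 scale and 92 of 100 changed by 1 were called, with 7 false calls. All changed genes had a control mean of log2(FPKM + 1) above 1, and they were far fewer than the 6098 called in the data. The adjustment was therefore stricter in the simulation, and these shares do not carry over to the real fit.

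The named genes were all 10 members and, from each further list, up to 2 called genes in each direction with the largest log2 difference and a mean of at least 1 FPKM. The members and lists were chosen with earlier results of these data known. Groups came from the labels, and all 6 libraries were used.

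Depth was inferred from FPKM steps of 1175 genes with 1 annotated transcript. Steps were searched within a fixed range, so a true step outside it could not have been found. Depth and fragment estimates would be larger if the true step were smaller. With the best step per library, 33.1% to 44.1% of values were whole multiples (tolerance 0.01), against a median of 1.01% to 1.26% at other steps. The next best step per library reached 17.7% to 20.7%. The fragments given for SNAI1, ZEB1 and ZEB2 are estimates from these steps and the listed transcript lengths. Alternatives were another pseudocount, a filter at a mean of 1 FPKM, 3 scalings, no variance trend, a replicate block and each library left out.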

Additional observations from a re-analysis of the deposited data

How the results depend on the processing

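The fits were repeated under 13 alternatives. SNAI2, TP63, GRHL2 and OVOL1 passed in all 13, while 5 or 6 members passed as each library was left out, and 4971 to 5371 of all genes, against 6098. Scaling to equal sums or medians, or by quantiles, a pseudocount of 0.1 and a fit without variance trend each left 6 members called. The pseudocount of 0.1 gave larger log2 differences for genes of low level. The filter at a mean of 1 FPKM removed SNAI1, ZEB1 and ZEB2, left 6 called, and gave 5 called mesenchymal genes in place of 8 because fewer genes were tested. Leaving out libraries gave 5 to 7 called mesenchymal genes, 6 to 9 related epithelial factors and 8 to 10 corepressors. The log2 difference of ZEB2 ranged from −0.03 without miR-204-5p replicate 2 to 0.01 without miR-204-5p replicate 1, and was 0.01 without control replicate 2. Of 127 repeated values of members, 120 kept direction and call. With the replicate number as a block, 5 members were called (ESRP1 adjusted p = 0.0640) and 5096 of all genes. Same-numbered libraries did not deviate together (correlations across genes of −0.108 to −0.0210), so the numbers were not taken to pair the samples. Where groups held few fragments, as for ZEB1 and ZEB2, depth limited any comparison.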
